A study of Mus musculus with 8 samples.

Results

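DBA chromosomes were followed from the inbred parents into the F1 liver, where the same chromosomes share each nucleus with a B6 genome. The sites described here were the 5193 autosomal CGs that carried at least 10 reads sorted to the DBA chromosome in each parent and in 3 or more of the 4 F1 mice. They were part of 69477 autosomal CGs with any DBA-tagged read in these 6 mice and made up 0.379% of the 1370572 autosomal CGs that had 10 reads of any kind in at least 1 mouse of the series. The choice used read numbers only, and no methylation level entered it.

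Reduced representation bisulfite sequencing (RRBS) was made from liver DNA of mice 16 weeks old that had been fasted for 16 h. The parents, here mice of the parental strain that the labels do not tie to the F1 litters, were 1 female and 1 male of the inbred strain DBA/2J (DBA), and the F1 mice were 1 female and 1 male of each reciprocal cross with C57BL/6J (B6). In BXD mice the mother was B6 and the DBA chromosomes came from the father, whereas in DXB mice the DBA chromosomes came from the mother. Each mouse gave 1 set of DBA chromosomes, so that 2 parental sets were compared with 4 F1 sets, and the tests measured the spread between these single mice.

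A CG is a cytosine followed by guanine, and its methyl group is copied to the new strand by Dnmt1 when DNA is replicated. The level at a site is the share of DNA molecules that carry the mark, and CG-rich gene starts are usually free of it while most CGs in gene bodies and between genes carry it. Sequence close to a site can set its level on the same chromosome, an effect in cis, and factors made from the other chromosome can act on it in trans, so that an F1 mouse shows each parental chromosome in a shared cell.

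The sites the comparison turned on are shown first. Bases are those of the B6 reference assembly NCBIM37 (mm9), plus strand, and may differ from DBA at SNPs. Capitals mark the CGs that passed the test of parents against F1 or at which every F1 set left the range of the parents, and the window runs 25 bases to each side. For CGs read on the minus strand the capitals still show the plus strand. The first 5 windows hold all 8 CGs that passed the test, and the last 2 are among the widest separations of F1 and parents.
intergenic run, chr13:87807692-87807774: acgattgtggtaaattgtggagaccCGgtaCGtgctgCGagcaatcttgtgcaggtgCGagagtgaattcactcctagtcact
3110070M22Rik, chr13:120276820-120276878: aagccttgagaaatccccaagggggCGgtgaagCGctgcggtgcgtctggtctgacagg
Atp13a2, chr4:140559021-140559071: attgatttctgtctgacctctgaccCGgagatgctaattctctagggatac
Hspg2, chr4:137096014-137096064: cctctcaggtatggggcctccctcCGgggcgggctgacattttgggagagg
intergenic CG, chr12:115362099-115362149: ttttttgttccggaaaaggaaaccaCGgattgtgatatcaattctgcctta
intergenic CG, chr11:84521225-84521275: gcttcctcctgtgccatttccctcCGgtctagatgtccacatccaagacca
Bst2, chr8:74060711-74060761: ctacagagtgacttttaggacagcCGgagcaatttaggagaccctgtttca

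The intergenic run on chromosome 13 has no gene start within 10 kb. The windows named for Atp13a2, Hspg2 and Bst2 lie in introns by the GENCODE vM1 annotation, and that of 3110070M22Rik lies in a coding exon. In all windows but those of 3110070M22Rik and chromosome 12, 1 of the capital CGs belongs to the CCGG site at which MspI cut the DNA, so that the read starts on it.

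The 5193 CGs fell into 2211 runs, in which neighbours were at most 100 bases apart. CGs of a run were often read in the same molecules and were not independent. Of the CGs, 1994 lay in introns, 1466 between genes, 706 in coding exons, 555 in UTRs, 365 within 1 kb upstream of a gene and 107 in other exons. No CG lay further than 49 bases from the MspI cut at which its read began, and 4444 CGs had 10 reads in all 6 sets. The median number of DBA-tagged reads was 38 in the DBA female, 40 in the DBA male, 49 in the BXD female, 81 in the BXD male, 31 in the DXB female and 33 in the DXB male.

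DBA-tagged cytosine calls on the autosomes numbered 2936724 to 27841052 per mouse, and the libraries differed in 3 ways. On chromosome 1, 99% of the CGs with DBA-tagged reads lay within 99 bases of the cut in the DBA female and the BXD male and 75 in the DBA male, but 49 to 50 in the other 3 F1 mice. Read numbers of the DBA male followed those of no other set, with a correlation of log2 read number over the 5193 CGs of -0.32 with the DBA female and at most 0.13 with any set, against 0.87 to 0.88 among the 3 F1 libraries of short reach. Methylation at cytosines outside CGs, which bounds failed conversion, was 1.08 and 1.12% in DBA-tagged reads of the parents, 0.830% in the BXD male and 1.53 to 1.93% in the other F1 mice. Sorted reads matched the labels, with 99.1 and 99.5% of sorted calls on the DBA chromosome in the parents and 46.6 to 47.7% in the F1 mice. Of the 9 hepatocyte markers listed, only the start of the fibrinogen gene Fgb was covered in all sets, at 14.8 to 39.6% methylation in reads of all kinds. Starts of 3 of 4 stellate cell markers were covered, at 1.96 to 24.7%, and no blood, endothelial or bile duct marker was covered.

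The mean level of the DBA chromosomes over all CGs was close in parents and hybrids. Over the 4444 CGs the mean level was 43.0% in the DBA female, 43.8% in the DBA male, 44.1% in the BXD female, 43.0% in the BXD male, 43.5% in the DXB female and 43.1% in the DXB male. The F1 sets lay within or just beyond the range of the parents. The parents averaged 43.4% ± 0.562 (SD, n = 2) and the F1 sets 43.4% ± 0.477 (SD, n = 4), a difference of 0.010 percentage points (two-sided exact permutation test, p = 1). With 2 against 4 sets there are 15 assignments and the smallest possible p is 0.0667. No exact permutation test of a single value could thus pass 0.05 in either direction. With at least 20 reads the difference was -0.528 points, and with reads added over CGs it was 5.34 points (exact p = 0.0667), the sets having their reads on different CGs.

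Levels of parents and F1 were also close in each part of the genome. Between genes, where levels were highest, the parents stood at 61.6% ± 0.174 and the F1 sets at 62.0% ± 0.362. In introns the values were 46.2% ± 0.264 and 46.6% ± 0.577, and in coding exons they were 37.0% ± 0.681 and 36.5% ± 0.491. Within 1 kb upstream of genes the DBA male had 13.9%, above the DBA female with 10.2% and above all 4 F1 sets with 9.68 to 11.4%. The exact two-sided p was 0.2 to 0.667 over these parts and UTRs. Among 1095 CGs at 90% and over, the F1 sets averaged 95.4% ± 0.151 against 95.9% ± 0.292 in the parents, with no overlap of the groups and the smallest p that the design allows.

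At single CGs, the means of F1 and parents lay within 10 percentage points at 88.3% of the CGs and within 20 points at 97.8%, and the median absolute difference was 2.01 points. By the average of both means, 2136 CGs were below 10%, 1241 were at 90% and over and 1816 lay between. Near either end a large difference is not possible by arithmetic, and the 2 means were within 10 points at 98.8 and 98.1% of the CGs there. Of the CGs between, 69.1% were within 10 points, and the largest difference of all was 39.4 points.

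**Figure D1:**
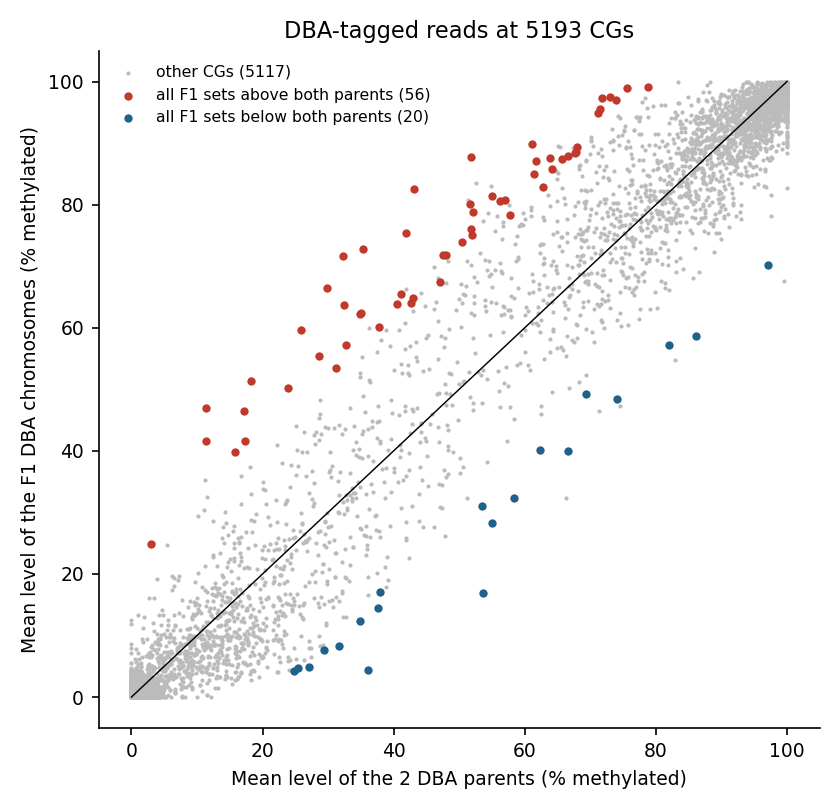
Mean methylation level of the F1 DBA chromosomes (vertical axis, %) against the mean of the DBA female and male (horizontal axis, %) at 5193 CGs, 1 point per CG, with the line of equal levels. Most points lie at the 2 ends near the line, and the 56 red and 20 blue CGs, where every F1 set was beyond both parents by means at least 20 points apart, lie away from it.

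CGs where the strains differ were looked at next. At 223 of the CGs, in 207 runs, the DBA female and the B6 chromosomes of the B6 female differed by 50 points or more, and B6 was the higher at 215 of them. The mean DBA-tagged level there was 5.57% in the DBA female, 6.04% in the DBA male, 6.48% in the BXD female, 5.70% in the BXD male, 6.81% in the DXB female and 6.26% in the DXB male. The B6 female stood at 82.2%. In the same F1 livers the B6-tagged reads averaged 81.1% in the BXD female, 81.8% in the BXD male, 81.1% in the DXB female and 80.0% in the DXB male over the 198 of these CGs with 10 such reads in all 4 mice.

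As a share of the way from the DBA female to the B6 female, the mean position of the F1 DBA chromosomes was 1.57 to 3.13%, and that of the DBA male, which carries no B6 genome, was 2.42%. The median position was 0 in every set. At the 310 CGs where the strains differed by 30 points or more the mean position of F1 was 11.5%, against 2.52% at the 223. The position of the DBA male is not given at the 310 CGs, so that a shift particular to F1 cannot be read from the 11.5%. At 161 of the 223 CGs all 6 DBA sets were at 5% or less, and a CG that a C/T SNP removes from the DBA genome would read as 0 there too, because such SNPs were not used to sort reads and their positions were not used here. At the 34 CGs where the DBA female was between 5 and 95%, and a CG must therefore be present, the mean was 28.8% in the DBA female, 29.1% in the DBA male, 33.3% in the BXD female, 29.5% in the BXD male, 33.7% in the DXB female and 31.6% in the DXB male, with the B6 female at 76.2%. The mean of each F1 set lay above both parents, but B6 was the higher strain at only 28 of the 34 CGs. The median position toward B6 was 11.7% in the BXD female, -2.42% in the BXD male, -0.618% in the DXB female and -1.84% in the DXB male, against -1.65% in the DBA male. By the median, unlike by the mean level, the F1 sets thus did not share a direction. These values are a description, as the DBA female also chose the CGs.

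**Figure D2:**
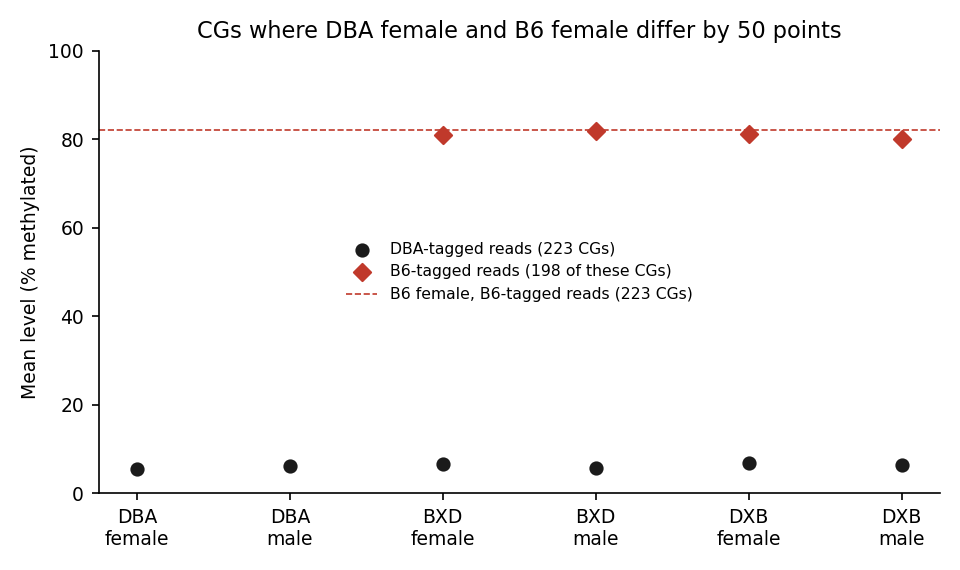
Mean methylation level (vertical axis, %) at CGs where DBA female and B6 female differed by at least 50 points, for DBA-tagged reads of each of 6 mice (black circles, 223 CGs), B6-tagged reads of the 4 F1 mice (red diamonds, 198 of these CGs) and B6-tagged reads of the B6 female (dashed line, 223 CGs). DBA chromosomes sit between 5.57 and 6.81% in parents and F1 alike, and B6 chromosomes of the same F1 mice between 80.0 and 81.8%.

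The distance between sets was then compared with the distance within a generation. The mean absolute difference per CG was 3.98 to 5.15 points between the DBA female and the 4 F1 sets and 4.34 to 4.94 points between F1 mice. The DBA female was 3.98 points from the BXD male. It was 5.01, 5.05 and 5.15 points from the BXD female, DXB female and DXB male, above every pair of F1 mice. The DBA male stood apart from all, at 6.33 to 6.99 points from the F1 sets and 6.67 points from the DBA female. The error expected from the read numbers was then subtracted. The root mean square difference left was 3.83 to 5.64 points for the DBA female and F1 and 3.72 to 4.83 points for pairs of F1 mice. For the DBA male and F1 it was 8.005 to 8.68 points. The DBA female was again closest to the BXD male, and its distances to the other F1 sets, 5.12 to 5.64 points, were above every pair of F1 mice. Over all pairs, parents and F1 were 0.825 points further apart than sets of 1 generation (one-sided exact permutation test, p = 0.133). Without the DBA male this was 0.199 points (one-sided exact p = 0.4), and without the DBA female it was 2.04 points (exact p = 0.2). With 1 parent and 4 F1 sets the smallest possible p is 0.2. By mean absolute difference the closest pair was the DBA female and the BXD male, which are also the 2 libraries of longest reach, and after subtraction of counting error it was the DXB female and the DXB male.

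**Figure D3:**
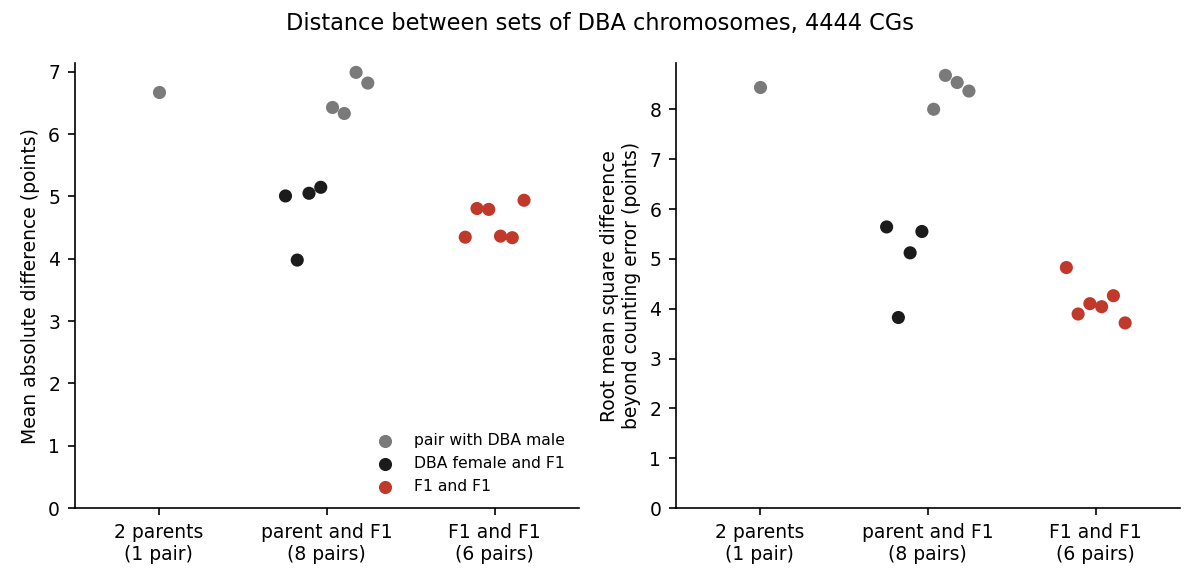
Distance between sets of DBA chromosomes over 4444 CGs as mean absolute difference (left) and as root mean square difference beyond counting error (right), both in percentage points, 1 point for each of 15 pairs of mice, coloured by whether the pair holds the DBA male, the DBA female and an F1 mouse, or F1 mice alone. All 5 pairs with the DBA male lie highest in both panels. Of the 4 pairs of DBA female and F1, only that with the BXD male does not lie above all 6 pairs of F1 mice.

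Large changes between a parent and an F1 mouse were counted by the study's rule for epimutations, in which each level is outside the exact 95% binomial interval of the other and the levels differ by at least 50 points. The 8 pairs that join a parent with an F1 mouse gave 70 calls in 40046 comparisons, or 0.175%. The pair of parents gave 16 in 5193, or 0.308%, and the 6 pairs of F1 mice gave 13 in 28911, or 0.045%. With at least 20 reads the 70 calls were 7, by Fisher's exact test 38, and after thinning to the less covered set 136, and the other kinds of pair were not counted in these ways. Pairs with the DBA female had 2 to 11 calls each and pairs with the DBA male 9 to 13, against 1 to 4 for pairs of F1 mice. By this rule, at 10 reads, the 2 inbred parents had more calls than any pair of a parent with an F1 mouse.

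The 70 calls were at 44 CGs, 0.847% of the sites. At 22 CGs only pairs with the DBA male were called, at 16 only pairs with the DBA female, and at 6 pairs with each, of which 4 had a single direction. Only 2 CGs were called in 4 pairs. In an intron of Tpcn2, which encodes an endolysosomal cation channel, chr7:152461553 was methylated to 23.1% in the DBA male but to 81.9% in the DBA female and 78.7 to 87.4% in the F1 sets. In an intron of 8430427H17Rik, chr2:153341517 had 8.33% in the DBA female, on 12 reads, but 56.2% in the DBA male and 66.7 to 77.1% in the F1 sets. At each of these CGs 1 parent stood furthest from all the other sets, and the second CG was also among those where every F1 set left the range of the parents.

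Departure of the whole F1 generation was asked for next, as CGs at which every F1 set with 10 reads was above both parents or below both. This held at 279 CGs above (5.37%) and 278 below (5.35%). At a CG with all 4 F1 sets and no ties, 1 of the 15 assignments of the sets, a share of 0.0667, has every F1 set above both parents. The same holds for below, and the shares found were no larger. With means at least 20 points apart there were 56 CGs above (1.08%) and 20 below (0.385%), in 68 runs and 45 genes on 17 autosomes. Means 20 points apart put the average of both between 10 and 90%, so only the 1816 CGs of that range could qualify, and the 76 were 4.19% of them. The median difference was 24.2 points for those above and -23.3 points for those below. Just inside the limit were CGs in Arntl2 with 20.05 points and in Uggt1 with -20.1 points, and just outside was a CG near C1ql2 with 19.98 points.

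The departing CGs had fewer reads in the DBA female than CGs of intermediate level as a whole, with a median of 19 against 35, while the DBA male had 34 against 36. The DBA male was below the DBA female at 36 of the 56 CGs where F1 was higher and above the DBA female at 13 of the 20 where F1 was lower, or 64.3 and 65%. Over all CGs between 10 and 90% the DBA male was below at 44.7% and above at 54.8%. With at least 20 reads in each set 14 CGs above and 6 below were left. Without the DBA male the counts were 85 and 50, and without the DBA female 191 and 194. A single parent is more easily passed on 1 side, which holds in both cases. The DBA male was also the further from the F1 sets, at 6.33 to 6.99 points in mean absolute difference against 3.98 to 5.15 for the DBA female. The part of this in the counts was not tested. The ratio of CGs above to CGs below, 56 to 20, thus changed with the parents used.

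Of the 76 CGs, 37 lay in introns, 24 between genes, 12 in coding exons, 2 within 1 kb upstream of a gene and 1 in another exon, and none in a UTR. Over all CGs the shares were 38.4, 28.2, 13.6, 7.03 and 2.06%, and 10.7% in UTRs. Mean levels in UTRs were low, with 12.2% in the parents and 11.7% in F1, and only CGs of intermediate level could depart. The split of those CGs by part was not taken. The MspI cut itself held 58 of them, or 76.3%, against 64.4% of the CGs of intermediate level and 42.9% of all. The median number of CGs within 200 bases was 4 at departing CGs, 5 at those of intermediate level and 7 at all. Another CG of the same run was measured for 48 of the 76. The mean of these neighbours moved in the same direction for 38 and by 10 points or more for 24, partly in the same molecules. The same shares were not taken over all CGs. None of the 76 CGs had its opposite strand measured, which was so for 4 of all 5193.

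The F1 libraries took part to different degrees. The BXD female was at least 20 points from the mean of the parents, in the direction of the group, at 57 of 69 measured CGs (82.6%), the BXD male at 50 of 76 (65.8%), the DXB female at 60 of 71 (84.5%) and the DXB male at 48 of 67 (71.6%). The BXD male had the lowest share, and at these CGs it had a median of 75.5 reads against 29 to 38 in the other 3. When the 3 libraries of short reach were set against the other 3, at the 4444 CGs with reads in all sets, 32 CGs (0.72%) did not overlap and differed by 20 points, and 14 of these were among the 55 that separated F1 from parents there. Among these 14 were CGs named here, chr2:153341517, chr11:84521250, chr17:35712879 and those of Tmem132c, Ahdc1 and Fgf1. The splits by reach and by generation differ only in the place of the BXD male. A departing CG can thus also split by reach whenever the BXD male is the F1 set nearest the parents. The 14 are therefore no measure of read reach, whose part in the departures was not tested.

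B6 chromosomes gave a further readout at the same CGs. The B6 female had its level on the F1 side of the DBA parents at 68 of the 76 CGs, or 89.5%, against 68.6% of all CGs of intermediate level. The B6-tagged reads of the F1 mice were on that side at 57 of 61 measured CGs (93.4%), against 73.7% of all CGs of intermediate level, and their mean was within 20 points of the F1 DBA level at 55. Where the F1 DBA chromosomes were higher, the median level was 49.2% in the DBA parents, 75.2% on the F1 DBA chromosomes and 68.5% in the B6 female. Where they were lower, the medians were 53.6, 22.7 and 25.1%. The departing CGs were chosen for parents that lay away from F1, which by itself can raise these shares, and the CGs of intermediate level were not chosen so. The shares thus do not show that B6 levels follow the departures, and the part of B6 in them was not tested.

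A model of the methylated and unmethylated counts was fitted at the 4611 CGs with both kinds of reads (edgeR quasi-likelihood test, Benjamini-Hochberg adjustment). It called 8 CGs, of which 5 were higher in F1 (0.108%) and 3 lower (0.0651%), while 294 had an unadjusted p under 0.05. The count was 1 without the DBA male, a CG that was none of the 8, 73 without the DBA female and 0 with limma, where 283 had an unadjusted p under 0.05. Of the 8, 3 met the rule of departure as well, all in the run on chromosome 13. An unadjusted p under 0.05 was found at 56 of the 76 departing CGs, against 294 of all 4611. The 76 were chosen by the same difference, so their share is no separate support. Counts added over runs gave no call among 2205 runs in edgeR and 166 runs with an unadjusted p under 0.05 (smallest adjusted p = 0.068).

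The run on chromosome 13 held the only CGs that both passed the test and met the rule of departure. With limma their adjusted p was 0.217 to 0.317. With counts added over its 4 CGs the run itself did not pass in edgeR, and its adjusted p of 0.068 was the smallest of all runs. At chr13:87807717 the DBA female had 82.9% and the DBA male 74.6%, but levels were 98.5% in the BXD female, 100% in the BXD male, 100% in the DXB female and 98.0% in the DXB male. All 4 F1 sets were nearly fully methylated and the groups did not overlap (edgeR adjusted p = 0.00209). At chr13:87807722 the parents had 73.2 and 72.9% and the F1 sets 96.9, 93.1, 100 and 100%, in the same order of mice (adjusted p = 0.0113). At chr13:87807729 they had 78.0 and 65.5% against 96.9, 96.6, 100 and 95.9% (adjusted p = 0.00644). The last CG of the run, chr13:87807749, had 58.5 and 64.4% in the parents and 86.2, 85.1, 84.8 and 83.7% in the F1 sets, which are also fully apart (adjusted p = 0.429). The 4 CGs lie within 33 bases and were read together, on 33 to 87 reads per mouse. The B6 female had 92.5 to 100% at them and the B6-tagged reads of F1 averaged 79.0 to 98.0%, near the F1 DBA level. Without the DBA male the adjusted p of the first 3 CGs was 0.22 to 0.412.

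Both called CGs of 3110070M22Rik, chr13:120276845 and chr13:120276853, gained a little methylation from none. At the first the DBA female had 0 of 32 reads methylated and the DBA male 0 of 131, while the levels were 23.2% in the BXD female, 9.33% in the BXD male, 13.9% in the DXB female and 3.57% in the DXB male. The F1 sets were all above the parents, but the lowest by 1 methylated read (adjusted p = 0.0113). The female was the higher of each cross, and with sex as covariate neither CG passed (edgeR adjusted p = 0.115 and 0.198). The second CG, 8 bases on in the same reads, differed only in the BXD male, with 6.67% (adjusted p = 0.0134). B6-tagged reads of these F1 livers were also methylated at the first CG, to 17.8% in the BXD female, 1% in the BXD male, 22.2% in the DXB female and 10% in the DXB male, against 2.46% in the B6 female. The 3 libraries with most methylation outside CGs were the highest on the B6 chromosome, and the part of conversion was not tested.

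The other called CGs did not separate the generations cleanly. In an intron of Atp13a2, which encodes a lysosomal polyamine transporter, chr4:140559046 was at 99.2% in the DBA female, 100% in the DBA male and 100% in the BXD male, but at 59.6% in the BXD female, 56.1% in the DXB female and 54.7% in the DXB male (adjusted p = 5.18e-04). The same division held between genes at chr12:115362124, with 62.8, 69.8 and 64.2% in the DBA female, DBA male and BXD male against 19.8, 21.3 and 24.1% in the other F1 mice (adjusted p = 0.0232). At both CGs the BXD male sided with the parents, which are the libraries of longer reach, and the 4 F1 sets did not act together. B6-tagged reads at the Atp13a2 site were lower in the same 3 libraries, with 78.0 to 86.3% against 100% in the BXD male and the B6 female. At the CG of chromosome 12 they were not, with 82.4 to 85.9% in these 3 libraries against 77.8% in the BXD male. In an intron of Hspg2, which encodes the basement membrane proteoglycan perlecan, chr4:137096039 was fully methylated in both parents and at 96.8% in the BXD female, 98.97% in the BXD male, 93.3% in the DXB female and 70.6% in the DXB male (adjusted p = 0.0131). Only the DXB male was far from the parents there, on 17 reads. Without it the difference was -3.64 points, against -10.1 points with all sets (edgeR adjusted p = 0.693). Neither this CG nor those of Atp13a2 and chromosome 12 passed with a quasi-binomial model (adjusted p = 0.0786 to 0.23) or with limma (adjusted p = 0.846 to 0.923).

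**Figure D4:**
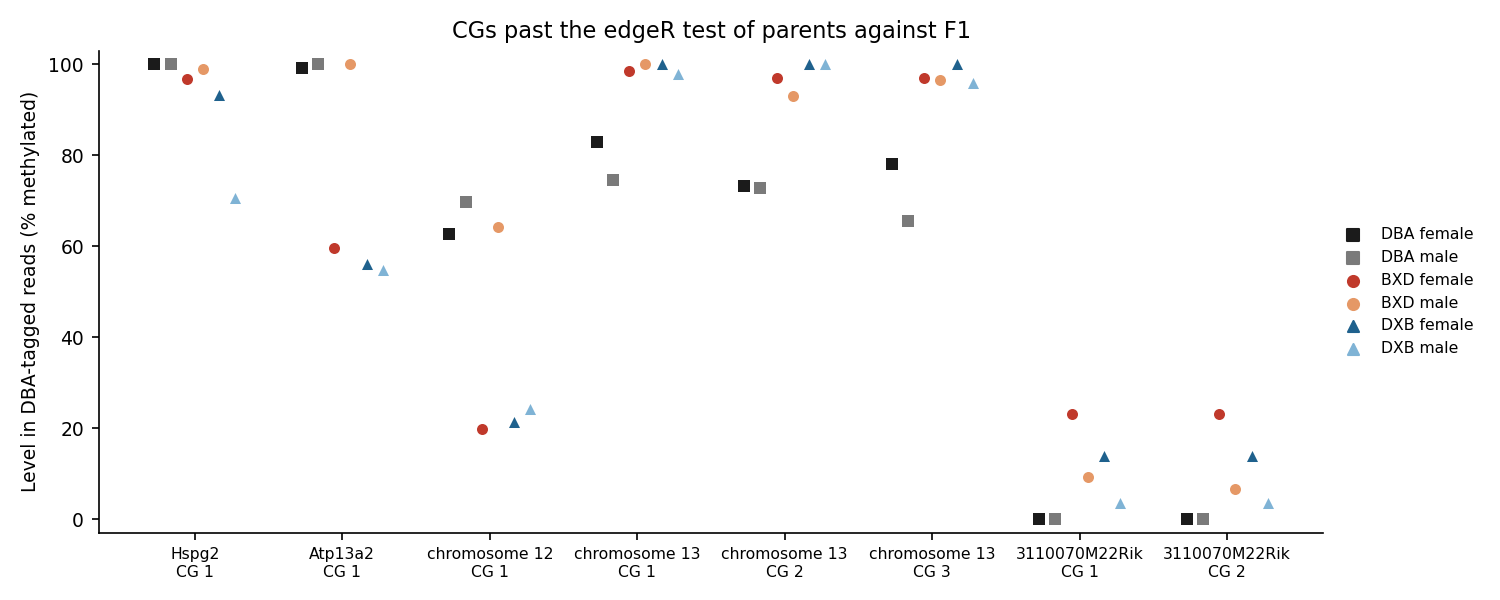
Level in DBA-tagged reads (vertical axis, %) of each of 6 mice at the 8 CGs that passed the edgeR test of parents against F1, with squares for the DBA parents, circles for BXD and triangles for DXB mice. The 4 F1 sets lie together above both parents at the 3 CGs of the intergenic run on chromosome 13 and spread from 3.57 to 23.2% at the pair of 3110070M22Rik, while the BXD male lies with the parents at Atp13a2 and at the CG of chromosome 12.

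Among the other CGs higher in F1, ranked by the gap between the generations, none passed the test, and the values are given as levels. Upstream of Rnf222, which encodes a RING finger protein, chr11:68701194 had 71.4% in both parents and 94.7, 91.9 and 100% in the BXD female, BXD male and DXB female. In an intron of Mmp15, a membrane-bound matrix metalloproteinase, chr8:97884010 had 75.0 and 76.3% in the parents and 96.8, 100 and 100% in the BXD male, DXB female and DXB male. Both were near full methylation in F1, with gaps of 20.5 points on as few as 10 reads per set.

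At Bst2, which encodes the interferon-induced membrane protein tetherin, the intronic CG chr8:74060736 was low in the parents, with 14.3% in the female and 20% in the male DBA parent. The F1 sets had 40% in the BXD female, 44.3% in the BXD male, 60% in the DXB female and 41.7% in the DXB male. The groups were 20 points apart and the F1 DBA chromosomes lay between the DBA parents and the B6 female, which had 64.7% (adjusted p = 0.641). B6-tagged reads of F1 were measured in the BXD male with 38.6% and the DXB male with 40%, close to the DBA-tagged reads of the same livers. It was the only departing CG among the 223 at which the strains differed by 50 points.

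In an intron of Slc4a2, an anion exchanger, chr5:23934180 had 5.56 and 17.3% in the parents and 40, 34.7 and 50% in the BXD female, BXD male and DXB male. In Nav1, a microtubule-binding protein, chr1:137440206 had 45.5 and 38.3% in the parents and 62.5, 81.9, 76.9 and 80.0% in the F1 sets. At Pink1, a mitochondrial protein kinase, the coding CG chr4:137875952 had 69.6 and 53.8% against 94.0, 86.0, 84.6 and 83.7%. No F1 set reached into the range of the parents at any of these 3 CGs. Gaps of 14.1 to 17.7 points were also found at intronic CGs of Tarsl2, Fgf1 and Tnr, at an intergenic CG of chromosome 16 and at a coding CG of Pcdha11.

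The Pcdha11 CGs lay in the cluster of protocadherin alpha genes, which encode cell adhesion proteins of neurons. They formed the second largest run of departing CGs, with 3 CGs. At the first the parents had 27.3 and 32.5%, the BXD female 91.3%, the BXD male 46.6% and the DXB female 61.5%. The F1 sets were all higher but spread over more than 40 points, and the DBA female had only 11 reads there. Slc4a2, 8430427H17Rik and Hapln4 had 2 departing CGs in a run, and no gene had departing CGs in separate runs.

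Of the CGs lower in F1 by this rule none passed the test. The intergenic CG chr11:84521250 had the lowest p of this group. It was at 52.2 and 55.2% in the parents and at 18.2, 25.8, 10.5 and 13.3% in the F1 sets, and the nearest sets, the DBA female and the BXD male, differed by -26.4 points (adjusted p = 0.128). The groups were far apart there, and the DBA female had 23 reads. The libraries of short reach also differed from the others at this CG without overlap, by -30.4 points.

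Better covered was an exonic CG of Atpif1, the inhibitor of mitochondrial ATP synthase, at chr4:132088652. The parents had 63.2% on 114 reads and 61.4% on 166 reads, while the F1 sets had 40.4, 45.7, 26.9 and 47.7% on 88 to 151 reads. All F1 sets were below both parents, with -13.7 points between the nearest, and yet spread by more than 20 points among themselves (adjusted p = 0.479). At Uggt1, a sensor of glycoprotein folding, chr1:36285435 had 62.4 and 76.2% against 51.6, 47.9, 46.5 and 50.8%, with the F1 sets close together. At Klhdc7a the coding CG chr4:139523115 had 30.5 and 44.7% against 15.5, 17.0, 6.67 and 18.8%.

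Tmem132c was near full methylation in the parents and intermediate in F1. Its intronic CG chr5:127836138 had 100% in the female and 94.3% in the male DBA parent but 63.9, 78.5, 65.4 and 72.7% in the F1 sets. Ahdc1 was further from B6 in F1 than in the parents. At its intronic CG chr4:132626390 the parents had 44.4 and 65.5%, the F1 DBA chromosomes 31.9, 34.7, 17.1 and 29.6% and the B6 female 90.9%. The libraries of short reach also differed from the others at both CGs, by -23.6 points at Tmem132c and -22.0 points at Ahdc1. Gaps of -16.9 to -9.62 points were found at CGs of Hapln4, Unc13a and Ltbp4 and at intergenic CGs of chromosomes 13 and 19, all with an adjusted p of 0.452 to 0.802.

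**Figure D5:**
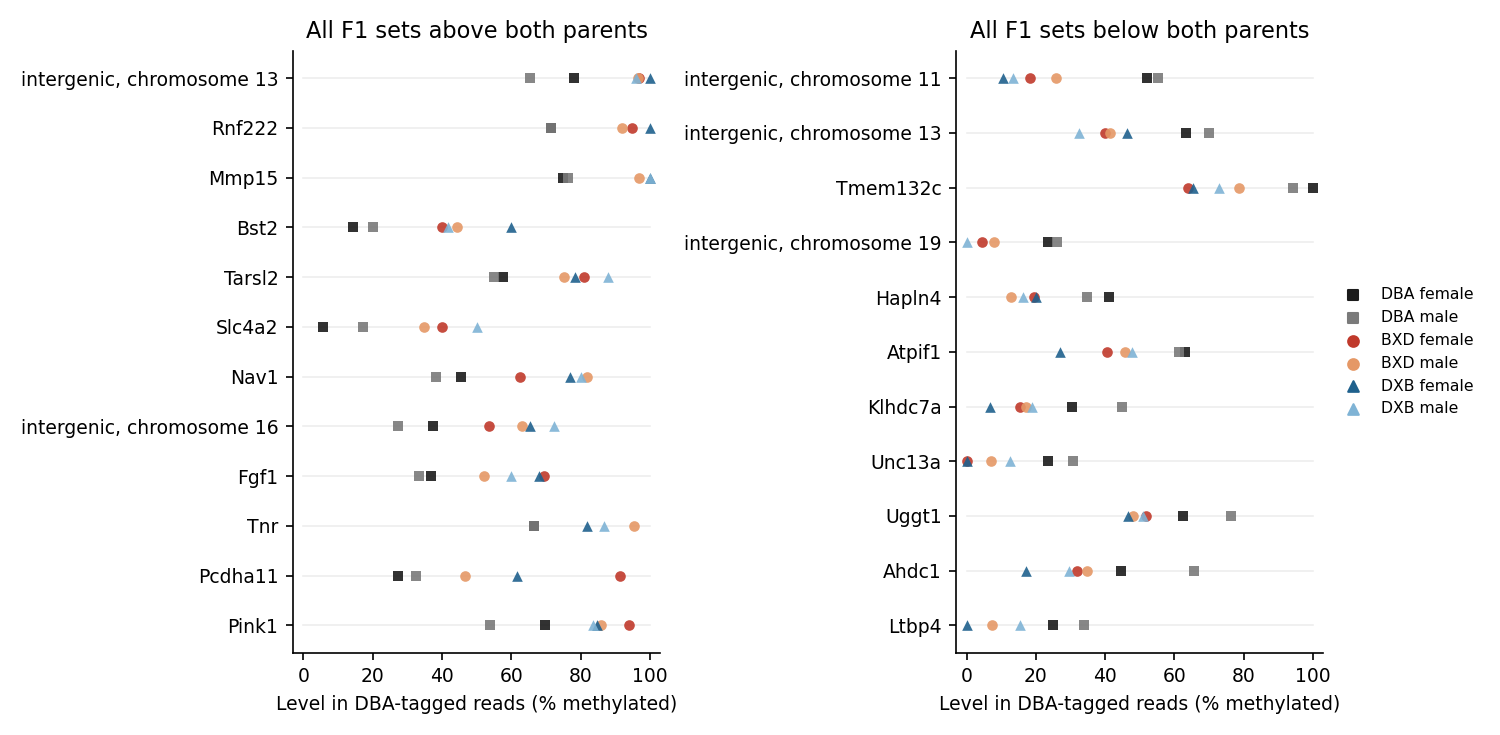
Level in DBA-tagged reads (horizontal axis, %) of each mouse at 12 CGs above (left) and 11 CGs below (right) both parents, 1 row per CG named by its gene or chromosome, with squares for DBA parents, circles for BXD and triangles for DXB mice. Sets with fewer than 10 reads are not drawn, and in each row every F1 point lies on 1 side of both squares.

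Genes of liver function were covered at 14 CGs only. Departing CGs were 1.46% of all CGs, so that few or none can be seen in so short a list. Of 16 hepatocyte transcription factors, 5 had CGs within the gene or 2 kb of it, 12 CGs in all, of which 0 departed, 0 passed the edgeR test and 0 had an unadjusted p under 0.05. Their median difference of F1 from parents was 0.36 points, from -6.20 to 14.0, against a median of 0 over all CGs. At Foxa2, a pioneer factor of hepatocyte genes, the mean of 4 CGs was 2.02% in the DBA female, 5.49% in the DBA male, 3.64% in the BXD female, 1.71% in the BXD male, 1.47% in the DXB female and 1.25% in the DXB male. At Ppara, the fatty acid sensor of the fasted liver, the mean of 4 CGs was 0 to 4.31% in all sets. The CG of Nr1i3, the xenobiotic receptor CAR, had 29.3 and 38.7% in the parents and 57.3, 30.7, 39.0 and 48.9% in the F1 sets, which overlapped them. The CG of Nr5a2, a regulator of bile acid genes, had 100 and 73.4% in the parents and 82.5 to 92.3% in the F1 sets. The widest difference of the list was at Prox1, a factor of liver development, where chr1:191961777 had 70 and 85% in the parents and 91.7, 92 and 90.9% in the BXD female, BXD male and DXB male. These F1 sets were all above both parents, on 10 and 20 reads in the parents, and the other CG of Prox1, read in the same molecules, overlapped.

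Of 24 genes of fasting and lipid metabolism only Pcx, which makes oxaloacetate for glucose synthesis, was covered. Its 2 CGs averaged 51.3 and 49.5% in the parents and 46.6, 48.1, 45.0 and 49.6% in the F1 sets. Kcnip3, which the study names for changes on B6 chromosomes and which was chosen on these samples, held on the DBA chromosomes 5 CGs with a median difference of 0.743 points and no departure. Its mean was 1.64 to 6.15% in every set. The widest difference was at chr2:127308217, with 12.5 and 26.9% in the parents and 3.28 to 12% in the F1 sets, all below both parents. At chr2:127308193 both parents had 0% and the F1 sets 1.92 to 4%, all above. None of the 41 imprinted genes listed, of the 19 writers, erasers and readers of DNA methylation, or Wdr63 held a CG with enough DBA-tagged reads.

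The other conditions of the design were described at the 4444 CGs with reads in all sets. Both BXD sets were apart from both DXB sets by 20 points at 26 CGs (0.585%), of which 11 were higher in DXB, where the DBA chromosome is maternal. The 3 females were apart from the 3 males in the same way at 13 CGs (0.293%). At the same CGs the parents and F1 gave 55 CGs (1.24%), and these shares come from groups of different size.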

How the data were processed

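RRBS of liver DNA from 8 mice was used, and DBA chromosomes were taken from the 2 DBA parents and 4 F1 mice. The authors cut DNA with MspI, aligned bisulfite reads to mm9 with BS Seeker and sorted reads with a SNP, C/T SNPs excepted, to the B6 or DBA chromosome. For each mouse, cytosine and class of reads, the authors deposited raw counts of methylated and unmethylated reads, which were the values used. The aligner's version, read trimming and any removal of duplicates: not given in the sources used here. Besides, the authors' 4 tables of comparisons hold mean levels, differences and p-values and were not used.

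Levels are methylated reads as a percentage of all reads, each strand being 1 site, with at least 10 DBA-tagged reads per set. With 10 reads, 1 read is worth 10 points, and intervals cover counting error only. Intervals were exact at 95%. Positions count from 1 on NCBIM37, and all 69477 CGs with DBA-tagged reads were CGs in it. Genes come from GENCODE vM1, by overlap or else the nearest start within 10 kb.

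Parents and F1 were compared by edgeR 4.0.16 in R 4.3.3 at single CGs and over runs of CGs at most 100 bases apart, with the Benjamini-Hochberg adjustment over all CGs or runs at 0.05, and by exact permutation for single values (Python 3.11.15, pandas 2.3.3, scipy 1.17.1, pysam 0.24.0, matplotlib 3.10.9). The fit was tested on simulated data with these read numbers and the same spread in every set. It called most changes of 40 points there but few of 20 points. The wider distance of the DBA male from the other sets was not simulated. A CG that did not pass is thus not shown to be the same in parents and F1. CGs named are those that passed edgeR and departed by 20 points, filled up to 12 in each direction by the gap between the generations, with 1 CG per 10 kb. The runs with most departing CGs, all calls and the CGs of the gene lists were named too. Other CGs, such as those called in 4 pairs, were chosen after their values were seen. The sites and lists were chosen with earlier results of these data known. Alternatives were limma 3.58.1, a quasi-binomial model, Fisher's exact test, sex as covariate, other minimums of reads and differences, added strands, thinned reads and leaving out each mouse. The library labelled B6 male was left out, as 16.1% of its sorted calls were DBA. Chromosomes X, Y and M were not analysed here. The results of 1 named CG and 1 listed gene are not reported here.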

Additional observations from a re-analysis of the deposited data

Results flagged for a closer look

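At 2 of 30 values checked over the 4 F1 sets, the gap of 1 set to the nearest other took up most of the range of the group, where chance gives about 1 in 20. Both were CGs at which the BXD male was the highest. At chr4:140559046 in Atp13a2 the BXD male had 100% against 54.7 to 59.6% in the other F1 sets, a gap of 0.891 of the range, and at chr12:115362124 it had 64.2% against 19.8 to 24.1%, a gap of 0.902 of the range. In both the BXD male was close to the parents. Several other CGs of like kind were seen on inspection. At chr17:35712879, within 10 kb of 2300002M23Rik, the parents had 13.5 and 9.09%, the BXD male 13.6% and the other F1 sets 49.02 to 62.7%. This CG counts among the 76 departing CGs, although the BXD male was above the DBA female by only 0.123 points. At chr15:81674731 the parents had 73.9 and 92%, the BXD male 81.8% and the other F1 sets 43.8 to 49.1%. At chr7:105327737 the parents had 0 and 6.67%, the BXD male 4.65% and the other F1 sets 30.3 to 35%.

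At chr8:98198987, 1893 bases from the start of Ndrg4, the reciprocal crosses went opposite ways. The parents had 61.5 and 66.1%, both BXD sets were higher with 94.4 and 68.2%, and both DXB sets were lower with 50 and 20%, a difference of 46.3 points between the means of the crosses. The difference was not tested, and the levels of the BXD female and both DXB mice rest on 10 to 18 reads.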

How the results depend on the processing

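The mean level of F1 and parents differed by 0.010 points, and its sign was not stable. It was -0.528 points with at least 20 reads, and from -0.387 to 0.408 points without each mouse in turn (-0.387 without the DBA female, -0.205 without the BXD female, -0.012 without the DXB female). With reads added over CGs it was 5.34 points (exact p = 0.0667), as the sets had their reads on different CGs. The distance between generations kept its direction in all 5 alternatives. The 70 calls of the study's rule became 7 with at least 20 reads, 865 at 30 points, 38 with Fisher's exact test and 136 after thinning to the less covered set, and 27 or 43 with 1 parent alone. The 76 departing CGs became 20 with at least 20 reads, 270 at 10 points and 13 at 30 points, and 75 to 385 without each mouse, of which 385 was without the DBA female and 135 without the DBA male. The 8 CGs called by edgeR became 5 with a quasi-binomial model, 5 with at least 20 reads, 289 with Fisher's exact test on added reads, which ignores the spread between mice, and 0 with limma, where 283 had an unadjusted p under 0.05. Without each mouse in turn the number of calls was 1 to 73, with 1 without the DBA male, where all 8 were lost and another CG was called, 73 without the DBA female, 3 without the BXD female, 2 without the DXB female and 5 without the DXB male. None of the 8 CGs passed in all 10 alternatives, and the adjusted p reached 0.234 to 0.923. For runs the count was 0 in the other settings tried, runs from CGs with reads in all sets included, and 0 to 1 without each mouse, the 1 without the BXD male. The mean position of F1 between DBA and B6 moved from 2.52% to 11.5% at 310 CGs that differed by 30 points, where that of the DBA male is not given. Alternatives with the DBA female or the DBA male left out of pairs and distances, and runs with reads in all sets, were chosen after seeing the data. Of the values of the 8 called CGs under these alternatives, 40 kept direction and call and 40 kept the direction only. Of the counts of departing CGs by direction, 14 stayed within 1.5 times and 10 did not. No analysis by family was possible because the labels do not tie the parents to the F1 litters. Sex, which the groups share, was fitted as covariate instead, with 6 calls at single CGs and 0 for runs.

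Depth limits what single CGs can show. Parents had a median of 38 and 40 reads, and with 1 mouse per strain and sex, variation between mice of a strain and the effect of the cross cannot be told apart beyond the spread of these sets.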
